A study of Homo sapiens with 8 samples.

Results

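The 5912 transcripts described here are endogenous protein-coding transcripts on which ribosome footprints were found past the coding region. The question was which of them gained footprints there when cells had both the transgenes of an amber suppression system and the amino acid it uses, beyond the difference that the amino acid made in the parental line. Of 82586 entries in the deposited tables, 65001 were endogenous and annotated as protein-coding. The 5912 were those with a mean density of at least 10 RPKM in the coding region and at least 1 RPKM in the first extended region over 8 libraries. RPKM scales reads to the length of a region and to the size of its library. The sources used here do not define the extended regions, and the first was read as the stretch from the stop codon of the coding region to the next stop codon.

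A stop codon is read by release factors, which free the finished protein and end translation. In an amber suppression system of this kind, a pyrrolysyl-tRNA synthetase loads an added amino acid onto a tRNA that pairs with the amber codon UAG, where it competes with the release factors. Where the tRNA wins at the end of a reading frame, the ribosome goes on past the stop, and footprints appear after it. Endogenous stop codons can also be read through at low rates without any such system. Whether footprints in an extended region came from readthrough or from other translation of the same sequence was not tested. Which of the transcripts end in UAG was not analysed here, and the tables do not pair transcript IDs with gene names, so IDs are given and no gene roles.

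Ribosome profiling reads the stretches of mRNA that ribosomes cover while nuclease removes the rest. It was applied to 4 groups of 2 libraries from human cells. HEK293T is an embryonic kidney line that carries the SV40 large T antigen. Parental HEK293T cells had no NAEK in one group and NAEK at 1 mM in another, and transgenic cells had none or 1 mM likewise. NAEK is an azide-bearing lysine derivative. Per the labels, the transgenic line is HEK293T with a stably transfected Mb pyltRNA, and the tables also hold an entry for the synthetase and one for a GFP construct (pSD31-GFP39-I-H). The labels do not say whether the line is 1 clone or whether replicates came from separate cultures. A p-value here therefore covers only the spread among these libraries, and that spread may be technical.

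Libraries held 12923243 to 20569590 reads, and the smallest was transgenic +NAEK replicate 2. Coding density of the synthetase was 5538 to 5820 RPKM in the 4 transgenic libraries and 7.24 to 11.4 RPKM in the 4 HEK293T libraries, so the transgene separated the lines as labelled. The first extended regions of the 5912 transcripts were short and thinly covered. Their median length was 39 nt (quartiles 18 and 75 nt), and their median number of reads over all 8 libraries was 20. Just inside the minimum for the first extended region, 10 transcripts had 1.0005 to 1.0041 RPKM, and just outside it 10 had 0.9971 to 0.9996 RPKM. For the coding region the 10 just inside had 10.0016 to 10.0458 RPKM and the 10 just outside 9.9488 to 9.9968 RPKM. At most 5 reads were found for 876 transcripts, at least 50 for 1421, and at least 50 in a region of at least 30 nt for 1124. A library with 0 reads in the region occurred for 3507 of them. Isoforms can share a region, and the 5912 transcripts had 5692 distinct sets of first extended values.

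By the median over all 5912 transcripts, density past the stop was not higher with both transgenes and NAEK than in parental cells. The median density of the first extended region was 6.45 and 7.07% of the coding density in HEK293T cells without NAEK and 6.10 and 7.82% with it. It was 4.94 and 4.98% in transgenic cells without NAEK and 6.41 and 5.93% with it. Transgenic cells without NAEK were the lowest group and overlapped no other. Transgenic cells with NAEK lay above them in both libraries, and their values reached into the range of HEK293T cells or below it. Group means were 6.76 ± 0.44 (SD, n = 2), 6.96 ± 1.22, 4.96 ± 0.0266 and 6.17 ± 0.343%, in that order. NAEK therefore went with a difference of 1.21 percentage points in transgenic cells and 0.207 in HEK293T cells. Their difference, the interaction, was 1.01 percentage points, less than the SD of 1.22 between the HEK293T libraries with NAEK. Libraries are bulk, so more cells with such footprints and more footprints per cell cannot be told apart.

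Sums over the transcripts gave a smaller interaction. First extended reads were 0.949 and 0.915% of coding reads in HEK293T cells without NAEK and 1.03 and 0.991% with it. They were 0.872 and 0.880% in transgenic cells without NAEK and 1.00 and 0.973% with it. By this measure transgenic cells with NAEK lay above HEK293T cells without NAEK, and reached into the range of those with it or below it. In each line both libraries with NAEK lay above both without it, by 0.112 percentage points between the means in transgenic cells and 0.0803 in HEK293T cells. The interaction of 0.0322 percentage points was near the SD of up to 0.0299 within groups. For summed RPKM in place of reads the interaction was 0.175 percentage points, against a pooled SD between replicates of 0.535, and it ran from -0.298 to 0.649 with 1 library left out.

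Each transcript was then tested by itself. The tested value was the log2 ratio of first extended to coding density, with 1 RPKM added to both, and the contrast was the NAEK difference in transgenic cells minus the NAEK difference in HEK293T cells. The fit took in 7575 entries past both minimums, namely the 5912, 1662 annotated targets of nonsense-mediated decay and the GFP39 entry. No transcript passed limma's test with Benjamini-Hochberg adjustment at 0.05, against 0% of all entries tested, and the smallest adjusted p was 0.0633. Under voom on recovered reads 0 passed as well. With a pseudocount of 0.1 RPKM 1 higher and 1 lower transcript passed, with no filter on low values 2 and 2 of then 25927, and with centred ratios 1 higher. At an unadjusted p under 0.05, 301 transcripts had a higher interaction, or 5.09% against 4.33% of all entries. A lower one was found for 173, or 2.93% against 2.8%. The 5912 make up most of that table. Among the 1662 decay targets 26 were higher and 39 lower (1.56 and 2.35%), and whether the kinds of transcript differ was not tested.

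The interactions of the 5912 transcripts centred near 0 and spread widely. Their median was 0.08 on the log2 scale, with quartiles of -0.75 and 0.95, beside a median of 0.04 over all entries tested and -0.03 over the decay targets. With ratios centred on each library's median, that of the 5912 was -0.11. An interaction above 0 was found for 3115 transcripts, 52.7% against 51.7% of all entries. The median SE was 1.07. The smallest interaction to reach an unadjusted p under 0.05 by limma was 0.97 in size, in a transcript more precise than the median. An interaction of at least 2 was found for 622 transcripts (10.5% against 8.9%) and one of -2 or below for 531 (8.98% against 8.07%). The median NAEK difference was 0.05 in transgenic cells and 0.01 in HEK293T cells. Transgenic cells lay below HEK293T cells by a median of -0.16 without NAEK and -0.11 with it. None of these 4 simple comparisons, which share libraries, gave an adjusted p under 0.05 for any transcript, against 0% of all entries in each. At an unadjusted p under 0.05, NAEK gave 432 higher and 194 lower transcripts in transgenic cells (7.31% against 6.26% of all entries, and 3.28% against 3.14%). In HEK293T cells it gave 144 higher and 107 lower (2.44% against 2.22%, and 1.81% against 1.68%). Transgenic cells against HEK293T cells gave 86 higher and 206 lower without NAEK (1.45% against 1.52%, and 3.48% against 3.21%). With NAEK they gave 383 higher and 364 lower (6.48% against 5.78%, and 6.16% against 5.87%).

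The libraries with both transgenes and NAEK stood out by rank more often than those of any other group. In 601 transcripts both were the highest of the 8 ratios, 10.2% against 9.2% of all entries tested. Both libraries of HEK293T cells without NAEK were highest in 209 (3.54% against 3.45%) and of HEK293T cells with NAEK in 277 (4.69% against 4.5%). Those of transgenic cells without NAEK were highest in 101 (1.71% against 1.74%). Both libraries with transgenes and NAEK were also the lowest of 8 more often than others, in 387 transcripts (6.55% against 6.72%). The lowest pair was transgenic cells without NAEK in 268 (4.53% against 4.25%), HEK293T cells with NAEK in 153 (2.59% against 2.68%) and HEK293T cells without NAEK in 144 (2.44% against 2.51%).

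**Figure D1:**
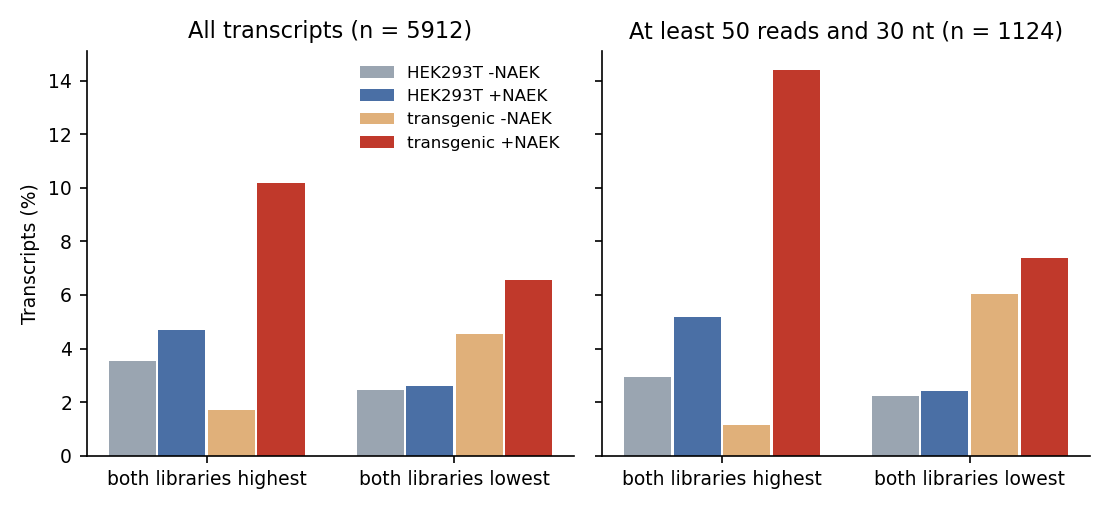
Share of transcripts (y axis, %) in which both libraries of a group had the 2 highest or the 2 lowest of the 8 ratios of first extended to coding density, for all 5912 transcripts (left) and for the 1124 with at least 50 reads and 30 nt (right). Transgenic cells with NAEK hold the tallest bar in each of the 4 sets, at 10.2 and 6.55% on the left and 14.4 and 7.38% on the right. Over all entries tested these shares were 9.2 and 6.72%, and 11 and 7.82%. Transcripts that passed a minimum through transgenic cells with NAEK are included. Without them the highest pair was 6.29% of 5422 on the left and 9.35% of 898 on the right.

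Part of the excess among the highest pairs came with the minimum itself. The minimum of 1 RPKM is a mean over all libraries, so a transcript can pass it through the group in which it is high. Of the 5912, 490 passed only through the transgenic libraries with NAEK, 322 and 347 only through HEK293T cells without and with NAEK, and 205 only through transgenic cells without it. Counts over the transcripts that passed are therefore descriptions. When the mean was taken over the 6 libraries outside the group, a choice made after seeing the data, 341 of 5422 transcripts had both transgenic +NAEK libraries highest (6.29% against 6.05% of all entries). The same count was 149 of 5590 (2.67% against 2.71%) and 208 of 5565 (3.74% against 3.67%) for HEK293T cells without and with NAEK. It was 66 of 5707 (1.16% against 1.27%) for transgenic cells without NAEK.

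The share with both transgenic +NAEK libraries highest went up with the length of the extended region, among the 5912 through all classes and over all entries tested through all but the longest. It was 2.87% of transcripts with a region under 10 nt (2.90% of all entries) and 3.28% from 10 to under 31 nt (3.60%). It was 10.2% from 31 to under 61 nt (9.12%) and 17.2% from 61 to under 121 nt (14.99%). It was 23.9% from 121 to under 241 nt (20.03%) and 26.7% from 241 nt on (16.7%), where 101 transcripts were left. With the minimum met outside transgenic cells with NAEK, a choice made after seeing the data, the shares in the same order were 1.89, 2.16, 7.99, 10.02, 12.9 and 17.0% of transcripts. Over all entries they were then 2.04, 2.69, 7.15, 9.09, 11.4 and 12.4%. For each other group the share stayed at 5.18% or less in every class of length. The lowest pairs did not follow length in this way, with 6.26, 7.66, 7.22, 5.10, 5.30 and 5.94% for transgenic cells with NAEK in the same order. The median interaction went from -0.17 and -0.06 in the 2 shortest classes to 0.07, 0.24, 0.21 and 0.19 in the longer ones.

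**Figure D2:**
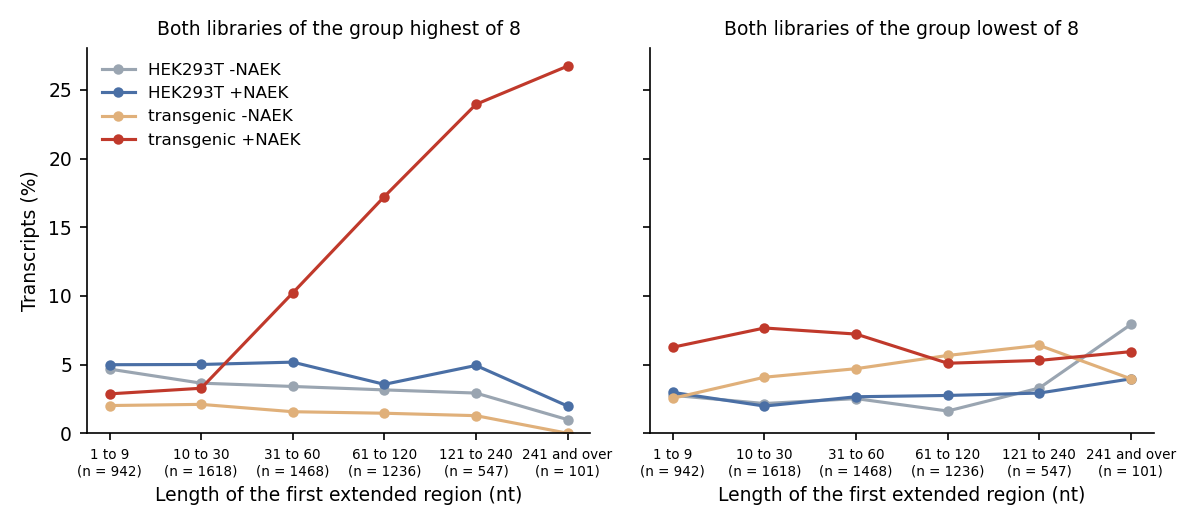
Share of transcripts (y axis, %) in which both libraries of a group had the highest (left) or the lowest (right) ratios of 8, by length class of the first extended region (x axis, nt, with the number of transcripts). On the left the line of transgenic cells with NAEK climbs from 2.87 to 26.7%, while the other 3 lines stay at 5.18% or less; transcripts that passed the minimum through transgenic cells with NAEK are included, and without them that line goes from 1.89 to 17.0%.

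Length went together with depth. The median number of reads over 8 libraries rose from 6 in the shortest class through 12, 18, 31 and 54 to 133 in the longest, and the part of depth in the trend was not tested by itself. By reads, the share with both transgenic +NAEK libraries highest was 3.88% up to 5 reads (3.82% of all entries), 6.40% from 6 to under 11 (6.18%) and 8.73% from 11 to under 21 (8.45%). It was 16.3% from 21 to under 51 reads (14.7%), 12.4% from 51 to under 101 (10.2%) and 10.8% from 101 reads on (8.58%). Lengths were recovered from the values as the shortest ones that give whole reads, so thin regions can be longer than stated. By level, the share was 9.17% in the 240 transcripts under 1% of the coding density (9.69% of all entries), 12.1% from 1 to under 5% (12.2%) and 12.2% from 5 to under 20% (11.7%). It was 6.23% from 20 to under 100% (5.90%) and 3.38% in the 355 transcripts at 100% or more (4.10%). The 5 transcripts with the most footprints past the stop, at 742 to 5960 RPKM, had interactions from -0.96 to 0.64 (SE 0.35 to 0.73), and their lowest adjusted p by limma was 0.794.

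Among the 1124 transcripts with at least 50 reads and 30 nt, 55 had an interaction of at least 2 on the log2 scale, that is 4-fold, and 8 one of -2 or below. Both transgenic +NAEK libraries were highest in 162 (14.4% against 11% of all such entries) and lowest in 83 (7.38% against 7.82%). The highest pair was HEK293T cells without NAEK in 33 (2.94% against 2.88%), HEK293T cells with NAEK in 58 (5.16% against 4.32%) and transgenic cells without NAEK in 13 (1.16% against 1.29%). The lowest pair was HEK293T cells without NAEK in 25 (2.22% against 2.47%), HEK293T cells with NAEK in 27 (2.40% against 2.62%) and transgenic cells without NAEK in 68 (6.05% against 4.79%). The 55 were 4.89% against 2.99% of all such entries, and the 8 were 0.712% against 0.463%. With a pseudocount of 0.1 RPKM they numbered 84 and 17, with 5 RPKM 18 and 0, and with 1 library left out 56 to 65 and 4 to 19. In 53 of the 55 both transgenic +NAEK libraries were highest.

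The 55 had little density past the stop in 6 libraries and much in 2. Their median was 2.27 and 3.19% of coding density in HEK293T cells without NAEK, 1.59 and 1.79% with it, and 1.54 and 1.45% in transgenic cells without it. In transgenic cells with NAEK it was 21.1 and 19.2%. These levels are inflated, because the 55 were picked for that difference. The median NAEK difference of the 55 was 2.83 in transgenic cells and -0.22 in HEK293T cells, and their median region was 120 nt long. The 8 transcripts at -2 or below had medians of 20.2 and 17.7% in HEK293T cells with NAEK and 1.92 and 1.15% in transgenic cells with it. Without NAEK the medians were 7.56 and 13.1% in HEK293T cells and 4.90 and 13.6% in transgenic cells. The median reads of the 8 in transgenic cells with NAEK were 2 and 1. These 8 were picked for their difference too, so it is likewise inflated.

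**Figure D3:**
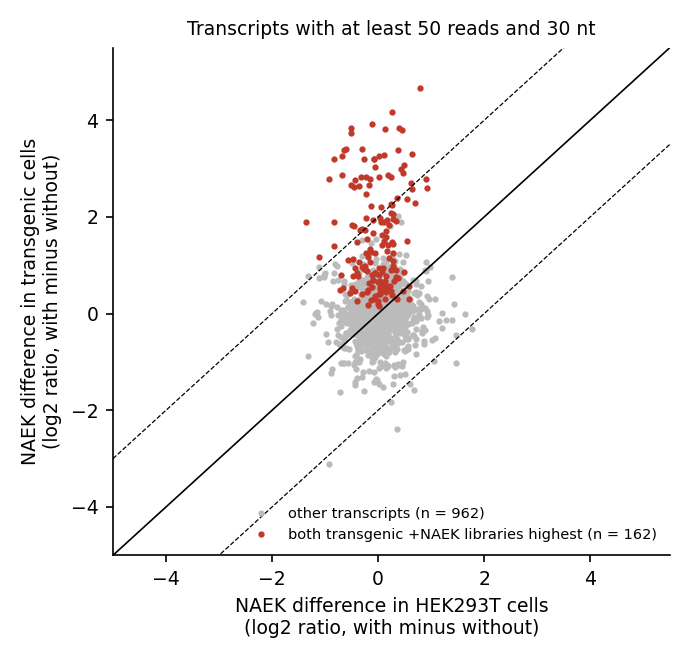
NAEK difference in the log2 ratio of first extended to coding density in HEK293T cells (x axis) and in transgenic cells (y axis) for the 1124 transcripts with at least 50 reads and 30 nt. The solid line marks an interaction of 0 and the broken lines 2 and -2; 55 points lie on or above the upper broken line and 8 on or below the lower one, and red marks the 162 in which both transgenic +NAEK libraries were highest.

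The requirement of 50 reads also let in transcripts through the group in which they were high. Of the 55, 46 reached 50 reads only with the transgenic +NAEK reads counted. For HEK293T cells without NAEK, with it, and transgenic cells without it, this held for 14, 11 and 9. The 8 lower ones all needed the reads of HEK293T cells with NAEK. But 6 of the 8 also needed those of HEK293T cells without NAEK, 6 those of transgenic cells without it, and 1 those of transgenic cells with it. With at least 50 reads required in the 6 libraries other than transgenic +NAEK, 9 of 898 transcripts had an interaction of 2 or more (1.00% against 0.662% of all such entries). At -2 or below there were then 7 (0.78% against 0.421%). With the 50 reads required in the 4 HEK293T libraries there were 7 and 2 of 685 (1.02% against 0.603%, and 0.292% against 0.151%). Among the 898, both transgenic +NAEK libraries were highest in 84 (9.35% against 8%) and lowest in 81 (9.02% against 8.9%).

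Both replicates were also read apart, each as 4 libraries, which share no library with each other. Interactions from replicate 1 and replicate 2 had a Pearson's r of 0.36 across the 1124 transcripts and 0.04 across all 5912. These are descriptions across transcripts, which share libraries, depth and in part reads, and which were chosen on reads summed over both replicates. Of 82 transcripts at 2 or more in replicate 1, 68 were above 0 in replicate 2, with a median there of 1.74. Of 63 at 2 or more in replicate 2, 59 were above 0 in replicate 1, with a median of 2.10. Of 17 at -2 or below in replicate 1, 10 were below 0 in replicate 2, and of 33 in replicate 2, 14 were below 0 in replicate 1. Over all 5912, the signs matched less often at 2 or more. Of 979 transcripts at 2 or more in replicate 1, 567 were above 0 in replicate 2 (57.9%). Of 884 at 2 or more in replicate 2, 520 were above 0 in replicate 1 (58.8%). At -2 or below, 386 of 718 and 461 of 921 were below 0 in the other replicate. Of the 1124, 37 were at 2 or more in both replicates and 0 at -2 or below in both, and of all 5912, 240 and 174 were. The same counts over all entries tested were not made, so these do not show whether the transcripts differ from other entries. The read minimum that leaves the 1124 was reached by most of the 55 above only through transgenic cells with NAEK. The counts among the 1124 are therefore no test of agreement between replicates.

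**Figure D4:**
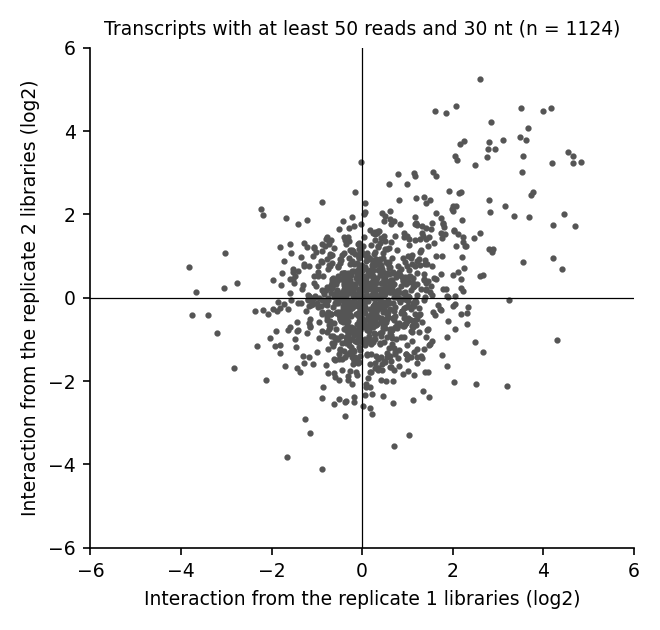
Interaction (log2) from the 4 replicate 1 libraries (x axis) and from the 4 replicate 2 libraries (y axis), 1 point for each of the 1124 transcripts with at least 50 reads and 30 nt. The upper right holds 37 transcripts past 2 in both replicates, and the lower left none past -2 in both.

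Single transcripts are named by rank of their p-value among those with at least 50 reads and 30 nt. The transcript with the smallest limma adjusted p over all entries tested, 0.0633, was outside that set and is not described. First in the set was ENST00000303577, with a first extended region of 60 nt. It held 13 and 16 reads in HEK293T cells without NAEK, 9 and 10 with it, 7 and 5 in transgenic cells without NAEK, and 84 and 78 with it. Its density there was 3.96 and 4.03% of coding density in HEK293T cells without NAEK, 2.31 and 3.16% with it, 1.78 and 1.11% in transgenic cells without NAEK, and 22.3 and 25.3% with it. The transgenic libraries with NAEK were far above the other 6, and those without it were the lowest. The log2 NAEK difference was 3.85 in transgenic cells and -0.51 in HEK293T cells, an interaction of 4.35 (SE 0.75, limma adjusted p = 0.327).

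ENST00000544622, with a region of 138 nt, showed the same order of group means on fewer reads. It held 4 and 4 reads in HEK293T cells without NAEK, 2 and 1 with it, 2 and 0 in transgenic cells without NAEK, and 28 and 20 with it. Relative to coding density this was 1.05 and 1.18%, 0.503 and 0.329%, 0.698 and 0%, and 11.8 and 12.8%, in that order. All 6 other libraries lay below 1.18% or at it, and the 2 transgenic +NAEK libraries did not overlap them. With 13 of its 61 reads and a mean of 0.885 RPKM in those 6 libraries, it met both the 50 reads and the minimum of 1 RPKM only through transgenic cells with NAEK. Its interaction was 4.03 (SE 0.70, limma adjusted p = 0.327), of which the coding region alone had -0.07 and the first extended region alone 3.97.

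The lower interactions were smaller and rested partly on HEK293T cells with NAEK. ENST00000375571, with a region of 168 nt, held 10 and 11 reads in HEK293T cells without NAEK, 25 and 13 with it, 12 and 11 in transgenic cells without NAEK, and 3 and 1 with it. Its density was 0.584 and 0.671% of coding density, 1.19 and 0.896%, 0.713 and 0.664%, and 0.186 and 0.0867%, in that order. HEK293T cells with NAEK were the highest and transgenic cells with NAEK the lowest group, without overlap. Its interaction was -2.05 (SE 0.57, limma adjusted p = 0.454).

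ENST00000394668, with a region of 228 nt, held 5 and 5 reads in HEK293T cells without NAEK, 18 and 13 with it, 4 and 6 in transgenic cells without NAEK, and 3 and 1 with it. Its density was 0.256 and 0.298% of coding density, 0.821 and 0.828%, 0.231 and 0.371%, and 0.173 and 0.0919%, in that order. The 2 HEK293T libraries with NAEK stood above the other 6. The NAEK difference of 1.08 in HEK293T cells was larger than that of -0.50 in transgenic cells, and the interaction was -1.58 (SE 0.54, limma adjusted p = 0.520).

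**Figure D5:**
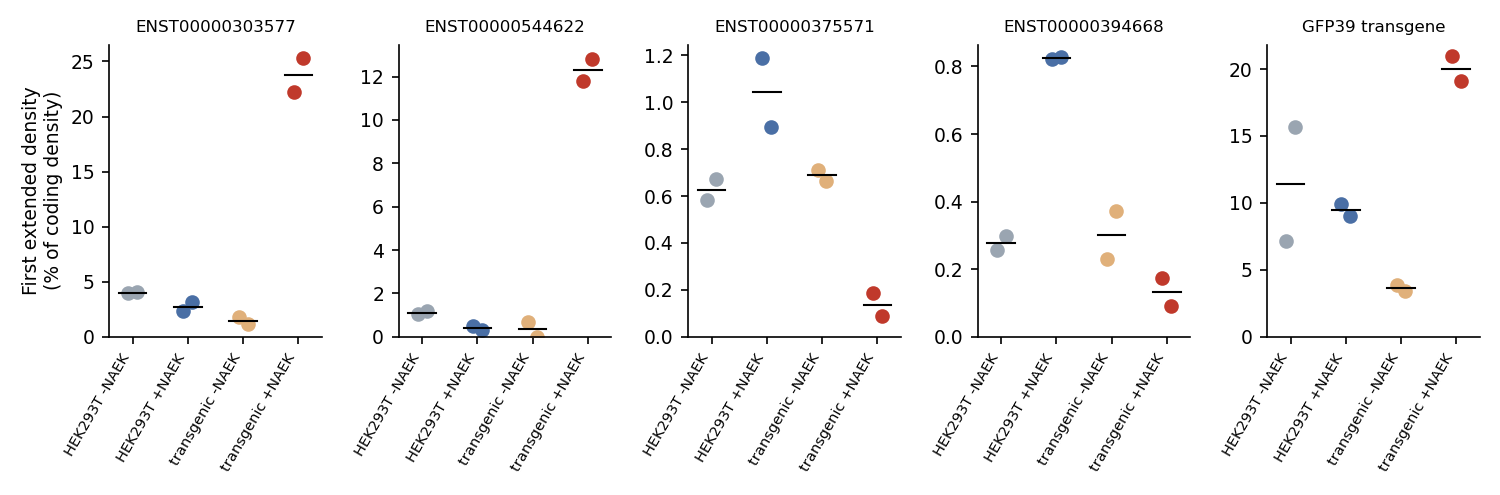
First extended density as % of coding density (y axis, each panel with its own scale from 0) in each library of the 4 groups for the 4 named transcripts and the GFP39 transgene; points are libraries and bars are group means of 2. Transgenic cells with NAEK are highest for ENST00000303577, ENST00000544622 and GFP39 and lowest for ENST00000375571 and ENST00000394668.

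The first 12 transcripts with a higher interaction were picked by p within the same read and length limits. Their high transgenic +NAEK ratios and NAEK differences follow from that choice. Only 3 of them had 50 reads outside transgenic cells with NAEK, and the other 9 met the read minimum through that group. Their interactions ran from 3.17 to 4.35 (SE 0.65 to 0.87, limma adjusted p 0.327 to 0.357) and their regions from 60 to 267 nt with a median of 150.5 nt. In all 12 both transgenic +NAEK libraries were highest, at group means of 1.73 to 88.3% of coding density against 0 to 5.29% in transgenic cells without NAEK. The NAEK difference was 2.67 to 4.66 in transgenic cells and -0.93 to 0.79 in HEK293T cells. The interaction of the coding region alone was -0.37 to 0.27 in these 12. The first 8 with a lower interaction had values from -2.49 to -1.14 (SE 0.49 to 1.08, limma adjusted p 0.454 to 0.743). In 6 of these 8 both transgenic +NAEK libraries were lowest.

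The calls were others when thin regions were left out. When only the 2449 entries with at least 50 reads were fitted, 8 of the 1421 transcripts among them passed with a higher interaction (0.563% against 0.327%) and 0 with a lower one (0% against 0%). Their interactions were 3.27 to 4.35 (SE 0.51 to 0.66), with limma adjusted p from 0.0297 to 0.0421, and ENST00000303577 and ENST00000544622 were among them at 0.0297. Their SEs in that fit were 0.55 and 0.52, against 0.75 and 0.70 over all entries. In all 8 both transgenic +NAEK libraries were highest. Their density was 5.79 to 115% of coding density in single transgenic +NAEK libraries, 0 to 2.40% without NAEK, and 0 to 8.29% and 0 to 3.16% in HEK293T cells without and with it. Of the 8, 3 had at least 50 reads outside transgenic cells with NAEK, and 5 entered the fit only through that group. In the same fit NAEK in transgenic cells gave 42 higher and 2 lower transcripts (2.96% against 1.76%, and 0.141% against 0.122%), and in HEK293T cells 0 and 0 (0% against 0% each way). With NAEK in both lines, transgenic cells were higher than HEK293T cells in 35 and lower in 8 (2.46% against 1.43%, and 0.563% against 0.367%). Transcripts could enter this fit by being high in transgenic cells with NAEK, which favours higher calls there. The counts of these comparisons are therefore descriptions too.

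These 8 calls were not stable to the loss of a library, which also leaves its group with 1 library. None was left when any 1 of the 4 HEK293T libraries, the 2 transgenic -NAEK libraries or transgenic +NAEK replicate 2 was left out. Without transgenic +NAEK replicate 1, 3 higher and 4 lower passed, of which 3 were among the 8. With 1 library left out, the interaction was 4.06 to 4.65 for ENST00000303577 and 3.77 to 4.30 for ENST00000544622. Under voom over all 7575 entries the adjusted p of the 8 was 0.140 to 0.180.

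The GFP39 transgene served as a check of the labels and is no endogenous transcript. Its first extended region of 672 nt stood at 3.86 and 3.42% of coding density in transgenic cells without NAEK and at 20.9 and 19.1% with it. In HEK293T cells it stood at 7.14 and 15.7% without NAEK and 9.89 and 9.02% with it, on 18, 19, 12 and 8 reads. By these percentages the transgenic +NAEK libraries were the highest of 8, while with 1 RPKM added to both regions they were not. The interaction was 2.21 (SE 0.79, limma adjusted p = 0.568), with NAEK differences of 2.45 in transgenic and 0.24 in HEK293T cells. Fitted alone, first extended density of GFP39 had an interaction of 3.80 and its coding density 1.59. HEK293T cells should lack the construct, so these interactions do not compare how the lines respond.

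The spread of the ratio lay in its upper part. Fitted alone, first extended density of the 5912 transcripts had a median interaction of 0.07 with quartiles of -0.75 and 0.92, nearly those of the ratio. Coding density alone had a median of 0.00 with quartiles of -0.11 and 0.10. Neither gave an adjusted p under 0.05 by limma, and the smallest was 0.0807 for the first extended region. Unadjusted, 494 transcripts passed for the first extended region (8.36% against 7.34% of all entries) and 149 for the coding region (2.52% against 3.14%). In the 162 transcripts with at least 50 reads and 30 nt whose ratios were highest in transgenic cells with NAEK, the first extended region had a median interaction of 1.35 and the coding region -0.01. The 162 were picked on the ratio, so the first of these values follows from that choice.

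The second extended region, which lies further downstream and was not used to choose the transcripts, showed less. It could be tested for 1304 of them, in a fit of 2959 entries with a mean of at least 1 RPKM there. None passed with a higher or with a lower interaction (0% against 0% each way), and the smallest limma adjusted p was 0.290. Unadjusted, 39 were higher (2.99% against 2.5%) and 31 lower (2.38% against 2.33%). Both transgenic +NAEK libraries were highest in 106 (8.13% against 6.79%) and lowest in 86 (6.60% against 6.45%). Of the 135 transcripts in which that pair was highest in the first extended region, it was highest in the second too in 24. The median interaction of the second region was 0.36 in those 135 and 0.02 in all 1304. The minimum of 1 RPKM was a mean over all libraries, so entries could pass it through transgenic cells with NAEK. The ratios of both regions also share the coding density. The counts of highest pairs and the 0.36 are therefore descriptions and no separate readout.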

How the data were processed

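The authors deposited RPKM per coding, first extended and second extended region of each transcript in 4 tables, 1 per group, per the file headers. Libraries were made with a TruSeq Ribo Profile kit, per the labels' protocols. The submitters' processing notes name Bowtie 1.2.2 and hg38. For the annotation, the read filters and how extended regions were set, nothing is given in the sources used here. Tables and columns were matched to samples by name, and 0 columns belonged to other samples.

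Ratios were log2(first extended RPKM + 1) minus log2(coding RPKM + 1), fitted over all 8 libraries by limma 3.58.1 in R 4.3.3, with the variance trend on and group as sole factor. Adjustment was by Benjamini-Hochberg over all entries tested, with a threshold of 0.05. The added 1 RPKM understates differences at low density. Ratios in percent have nothing added. Since 1 read adds a fixed step to the RPKM of a region, reads were recovered, with library totals set by the synthetase entry, whose name spans 1290 nt. Within 0.01 reads, 100% of coding and first extended regions tested came out whole in all libraries. Recovered reads served for depth, read minimums and voom, and limits by depth cover counting error only. The procedures were tested on simulated data. Python 3.11.15, numpy 2.4.6, pandas 2.3.3 and matplotlib 3.10.9 did the rest.

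Transcripts were named among those with at least 50 reads and 30 nt: the 12 higher and 8 lower interactions with the smallest p, since none passed, of which 2 IDs each way are printed. The 5 densest and GFP39 were added. Parts of the rule that need gene names or stop codons (1 transcript per gene, lists of genes, markers of the cell line) could not be applied. Members and lists were chosen with earlier results of these data known. Alternatives were other pseudocounts, read minimums, centring, a replicate block, identical isoforms merged, no variance trend, voom, and each library left out.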

Additional observations from a re-analysis of the deposited data

Results flagged for a closer look

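In the fit limited to entries with at least 50 first extended reads, 8 of 1421 transcripts passed limma's test of the interaction. That was 0.563% against 0.327% of the 2449 entries. Over all 7575 entries the limma adjusted p of the 8 was 0.327 to 0.352. ENST00000303577 had an interaction of 4.35 and ENST00000544622 one of 4.03, both with an adjusted p of 0.0297 in that fit and of 0.327 over all 7575 entries. In each of the 8 both transgenic +NAEK libraries were highest. The 50 reads count those libraries too, and 5 of the 8, ENST00000544622 among them, reached that number only through them, so those 5 entered the fit by being high there. No fit was made on reads outside that group, so the 8 calls are descriptions. With any 1 of 7 libraries left out, none of the 8 passed.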

How the results depend on the processing

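None of the 4 named transcripts changed direction under any of the 18 alternatives run for it. The count of transcripts past the adjusted threshold, 0 over all 7575 entries, was 2 with a pseudocount of 0.1 RPKM, 4 with no filter on low values, 8 with at least 50 first extended reads and 1 with ratios centred on each library's median. It was 0 in the other alternatives, the replicate block and every library left out included. Higher and lower interactions at an unadjusted p under 0.05 by limma numbered 921 and 591 of 25927 transcripts with no filter. With at least 50 reads they numbered 106 and 33 of 1421. Shares over all entries are not given for these alternatives, so the counts do not set the transcripts apart from other entries. The median interaction of 0.08 was -0.11 after centring, which sets each library's median to 0, and 0.00 to 0.14 with 1 library left out. The summed ratio's interaction ran from -0.298 to 0.649 percentage points with 1 library left out. Both transgenic +NAEK libraries were highest in 167 of the 1421 transcripts with at least 50 reads. They were highest in 341 of 5422 with the minimum met outside the group (6.29% against 6.05% of all such entries). With at least 50 reads and 30 nt they were highest in 162 of 1124 (14.4% against 11%).

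The 8 calls among entries with at least 50 reads became 0 to 7 with 1 library left out and 7 under a replicate block, 5 of them shared. Interactions of 2 or more, 55 transcripts, became 84 and 18 with pseudocounts of 0.1 and 5 RPKM, 56 to 65 with 1 library left out, and 9 or 7 when 50 reads were required outside transgenic +NAEK or in HEK293T libraries. Those at -2 or below, 8 transcripts, became 17 and 0 with the pseudocounts, 4 to 19 with 1 library left out (4 without HEK293T -NAEK replicate 1, 13 without its replicate 2, 19 without transgenic +NAEK replicate 1), and 7 and 2 under the same read requirements. The cause was not tested. These alternatives for the 8, 55 and 8 transcripts, and those by the libraries outside a group, were chosen after seeing the data. GFP39 kept its direction at 1.69 to 2.73 over 18 alternatives and never passed (adjusted p 0.272 to 0.704).

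Replicate numbers occur in every group, but samples of one number did not deviate together (correlations of 0.00514 to 0.0535 across 7575 entries), so the numbers were not taken as pairs. Merging transcripts with identical values in both regions changed nothing, because no such sets occurred among those tested. Precision limits the single transcript. The median SE was 1.07, and no interaction under 0.97 in size reached an unadjusted p under 0.05 by limma. That 0.97 is smaller than the median SE, so it holds for a more precise transcript. At the median SE a larger interaction is needed. The median SE was 1.68 up to 5 reads and 0.70 from 101 reads on, and the part of depth in it was not tested.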
